A study of Glycine max with 12 samples.

Results

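The difference between young soybean pods collected 40 d and 30 d after flowering was measured as 1 pooled stage effect over 2 soybean lines. All 12 lncRNA libraries of the series entered it, 6 of 40 d (MT_4, MT_5, MT_6, JN_4, JN_5 and JN_6) against 6 of 30 d (MT_7, MT_8, MT_9, JN_7, JN_8 and JN_9), with the line as a covariate. MT72 is a low-linolenic acid mutant of generation 4 after ethyl methanesulfonate, a chemical that makes point mutations, and JN18 is a high-oil variety that the labels call wild type; the 4 groups MT_40, MT_30, JN_40 and JN_30 held 3 libraries each. The members were the lncRNAs above 0.1 FPKM (fragments scaled to transcript length and to the mapped fragments of the library) in at least 3 libraries, which were 9142 of the 11072 in the deposited table. A lncRNA was called at a Benjamini-Hochberg adjusted p of at most 0.05 in limma on log2(FPKM + 0.1).

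Long non-coding RNAs are transcripts without a recognisable protein product, and they are grouped by where they lie against annotated genes. Intergenic lncRNAs lie between genes, intronic ones inside an intron, and antisense ones overlap an exon of a gene on the opposite strand. Others share a splice junction with an annotated transcript or overlap its exons on the same strand. Such RNAs can act on chromatin, on neighbouring genes, on messenger RNAs or as targets of microRNAs, and for most soybean lncRNAs no function is known. Around these stages the seeds inside a soybean pod pass from cell division towards filling, when oil and storage proteins are laid down. Whole pods hold many cell types, so fewer cells of a type and less RNA per cell cannot be told apart, and since only lncRNAs were analysed here the tissue could not be checked against marker genes.

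The libraries were even in depth, at 10.0 to 12.3 Gb of aligned bases as recovered from the ratio of coverage to FPKM. Of the 11072 lncRNAs in the deposited table, 8225 to 8998 were above 0 FPKM in each library, a looser bar than the 0.1 FPKM of the filter. JN_8 and JN_9 stood apart from their labels before any single lncRNA was read. Pearson's r of log2(FPKM + 0.1) was 0.711 to 0.824 between replicates of MT_40, MT_30 and JN_40 but 0.475 to 0.661 within JN_30, and JN_9 had the lowest number detected. Each library was placed on a scale where 0 is the mean of the 30 d libraries and 100 that of the 40 d libraries, computed for the lncRNAs called in a fit without that library. For lncRNAs higher at 40 d the median position of JN_8 was 63.2 and that of JN_9 was 40.2, against -15.4 to -4.2 for the other libraries of 30 d and 85.2 to 103.5 for those of 40 d. For lncRNAs lower at 40 d JN_8 was at 51.7 and JN_9 at 111, among the libraries of 40 d at 72.4 to 111.3. Both therefore lay between the stages or with the later one on this scale while labelled 30 d. JN_9 was unlike the 40 d libraries too, with r of 0.540 to 0.584 to them where they had 0.671 to 0.798 with each other, and it lay alone on the second principal component. Counts by class, length and line and the single lncRNAs most affected are given with and without both. They were left out after their place between the stages was seen, so larger changes and more calls without them follow in part from that choice and are no independent evidence.

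**Figure D1:**
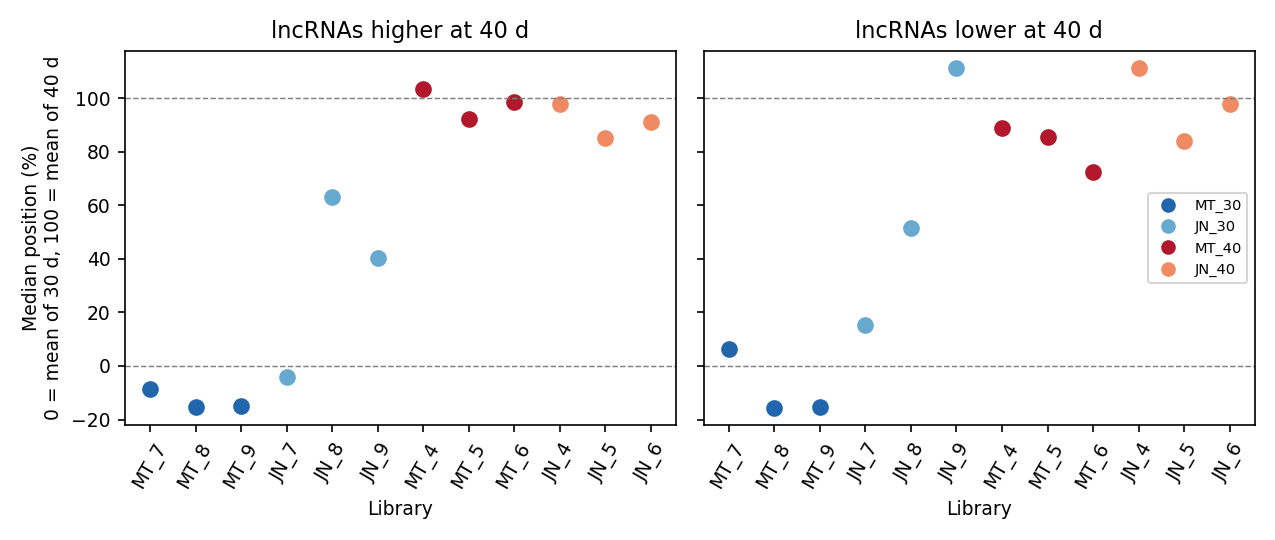
Median position of each library between the stages (y axis in percent, 0 the mean of 30 d and 100 the mean of 40 d, dashed lines) over the lncRNAs called higher (left) or lower (right) at 40 d in a fit without that library. JN_8 and JN_9 lie at 63.2 and 40.2 on the left and at 51.7 and 111 on the right, away from the other 4 libraries of 30 d.

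At 40 d 207 lncRNAs were higher and 105 were lower than at 30 d, 312 called in all (3.41% of those tested, 2.26% higher and 1.15% lower). The log2 fold change of those that rose had a median of 2.26, and 33 of them rose by more than 3 log2 units. The lncRNAs that fell had a median of -1.82, with 11 beyond a fall of 3. Most were low in abundance, with a median of 1.32 FPKM at 40 d for those that rose and 0.871 FPKM at 30 d for those that fell, and 17 and 6 of them averaged above 10 FPKM in their higher stage. The highest and lowest libraries of the stages did not overlap in 105 of the lncRNAs called higher and 37 of those called lower, where 1.42% and 0.831% of all lncRNAs tested, or 2.25% in either direction, were without overlap. The 12 libraries left 2257 lncRNAs (24.7%) with a 95% interval that lay wholly within 1 log2 unit of no change, and the median width of the interval was 1.75 log2 units.

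The number of calls moved with single libraries. Without JN_9 it was 799 and without JN_8 and JN_9 together 1051 (11.5% of those tested), of which 519 were higher (5.68%) and 532 lower (5.82%), and 297 of the 312 were among them. Leaving out any 1 of MT_4, MT_5, MT_6, MT_7, MT_8, MT_9 or JN_7 gave 167 to 206 calls. Under every alternative in which they could be tested, 138 of the 312 were called, 114 higher and 24 lower. At the looser rule of an absolute log2 fold change above 1 with an unadjusted p of at most 0.05, 1205 lncRNAs passed (13.2%), 6.97% higher and 6.21% lower.

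**Figure D2:**
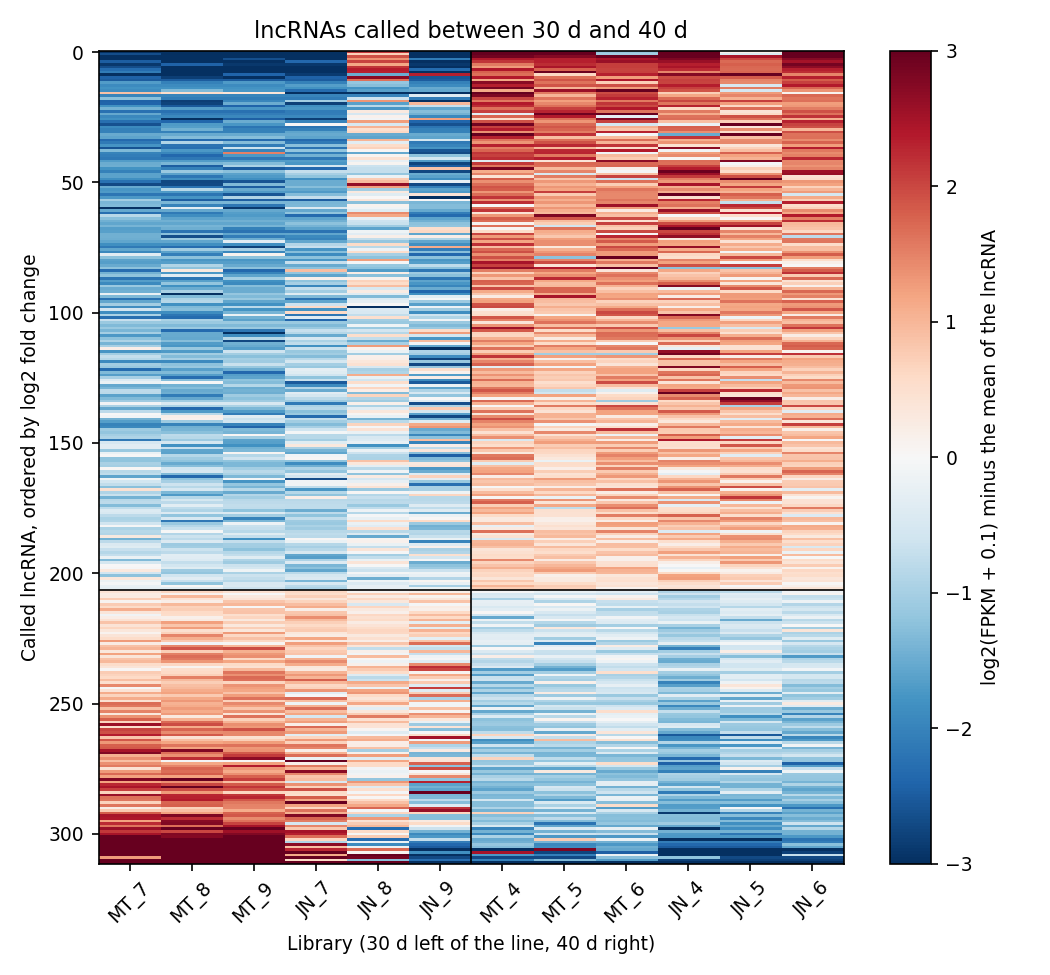
Each line of the map is 1 of the 312 lncRNAs called, ordered by log2 fold change, and each column a library; the colour is log2(FPKM + 0.1) minus the mean of that lncRNA. The 207 lncRNAs above the horizontal line were higher in the 6 libraries right of the vertical line, and the columns of JN_8 and JN_9 are paler or mixed beside the other libraries of 30 d.

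Both lines moved in the same direction in all 312 called lncRNAs, a count that the pooled call itself favours and that is given with no test. The change was the larger in MT72 for 224 of them, and for 162 with JN_7 as the only JN18 library of 30 d. Median log2 fold changes of the lncRNAs called higher were 2.49 in MT72 and 1.88 in JN18, or 2.32 against JN_7 alone. Those of the lncRNAs called lower were -1.93 and -1.51, or -1.97 against JN_7 alone. A test of the difference between the lines called 7 of 9142 lncRNAs (0.0766%), 2 of them among the 312, with 615 at an unadjusted p of at most 0.05. Lists chosen in MT72 alone do not use the JN18 values, and there 352 lncRNAs were higher (3.85% of those tested) and 292 lower (3.19%) at 40 d. In JN18 the sign of the difference was the same for 304 of the 352 and 222 of the 292, whether called or not. Of all lncRNAs tested 45.5% had a positive and 54.2% a negative difference there. Set against JN_7 alone, the counts of equal sign were 329 and 257, beside 43.6% positive and 55.7% negative of all lncRNAs tested. JN_7 is a single library, kept after JN_8 and JN_9 were seen to lie towards 40 d, so the larger counts follow in part from that choice. Medians were 1.08 in JN18 against 2.38 in MT72 for the 352, and -0.48 against -1.99 for the 292. The choice in MT72 itself enlarges the MT72 medians, so this gap does not measure a weaker change in JN18. For the 352, the median position between the MT72 stages was 6.03 in JN_7, 59.8 in JN_8 and 33.3 in JN_9, and at least 89.6 in the 3 libraries of JN_40.

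**Figure D3:**
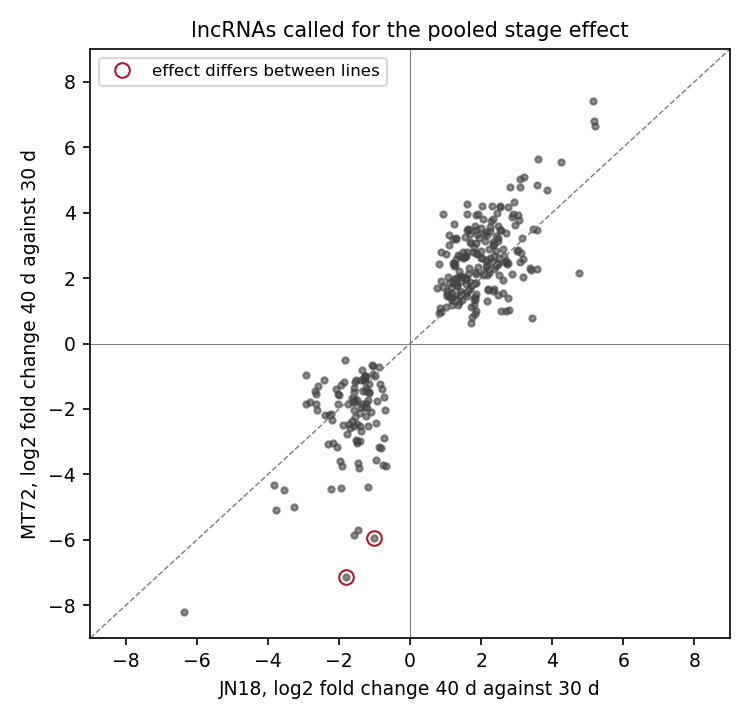
Log2 fold change at 40 d against 30 d in MT72 (y axis) and JN18 (x axis) for the 312 lncRNAs called for the pooled effect, with the line of equality dashed. All points lie in the quadrants of equal sign, 224 have the larger change in MT72, and circles mark the 2 whose effect differed between lines, MSTRG.46261.1 and MSTRG.46262.1.

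Among the lncRNAs that rose, the largest change in an intergenic RNA without overlap belonged to MSTRG.35266.1 (chromosome 3, 37059578 to 37060531, plus strand, 2 exons, 605 bases). Its FPKM was 11.1 at the lowest, 15.5 at the median and 20.8 at the highest of the 40 d libraries, and 0, 0.0321 and 7.54 at 30 d. The value of 7.54 was JN_8, and the other 5 libraries of 30 d were at or below 0.125. The log2 difference was 5.93 ± 0.82 (SE, adjusted p = 0.00202), and 6.80 without JN_8 and JN_9. A second intergenic RNA on another chromosome, MSTRG.32858.1 (chromosome 20, 38409339 to 38410316, plus strand, 2 exons, 591 bases), had 8.65, 11.7 and 15.1 FPKM at 40 d and 0, 0.189 and 5.43 at 30 d. JN_8 was again the highest library of 30 d, and the log2 difference was 4.90 ± 0.69 (adjusted p = 0.00204). Over the 12 libraries log2(FPKM + 0.1) of these RNAs had r = 0.977, a description in which the stages themselves make most of the spread.

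Other intergenic RNAs went from near 0 at 30 d to a low but regular level at 40 d. MSTRG.5874.1 (chromosome 11, 5526954 to 5527552, 599 bases) was listed at 0 in at least 4 of the libraries of 30 d and at 1.57 FPKM in JN_8, against 2.10, 3.17 and 5.35 at 40 d (log2 difference 4.28 ± 0.58, adjusted p = 0.00175). MSTRG.277.1 (chromosome 1, minus strand, 1849 bases) did not pass 0.0807 FPKM at 30 d and lay at 0.581, 1.35 and 2.53 at 40 d (3.53 ± 0.36, adjusted p = 0.000341). In this RNA neither JN_8 nor JN_9 was near the 40 d libraries, and its log2 change was 3.48 in MT72 and 3.58 in JN18.

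The same held for MSTRG.20738.1 on chromosome 17, at most 0.0217 FPKM in any library of 30 d and 0.604, 0.972 and 2.40 at 40 d (3.48 ± 0.35, adjusted p = 0.000341). MSTRG.23817.1 on chromosome 18 had 0.777, 1.25 and 2.02 FPKM at 40 d against no more than 0.179 at 30 d (3.42 ± 0.37). MSTRG.11101.1 on chromosome 13 had 0.166, 1.54 and 1.82 FPKM at 40 d and at most 0.0526 at 30 d (3.48 ± 0.47), with JN_5 as the low library of 40 d. A more variable rise was seen in MSTRG.3595.1 on chromosome 10, where 40 d ran from 0.643 through 3.22 to 16 FPKM and 30 d from 0.112 through 0.230 to 0.325 (3.47 ± 0.50, adjusted p = 0.00242). The groups were apart in each of these RNAs, and none has a gene name in the files. Here, and for other RNAs at or near 0 in a stage, the size of the log2 difference rests on the 0.1 FPKM added before the logarithm. Over the alternatives, which change that value among other settings, it ran from 1.06 to 7.12 for MSTRG.20738.1 and from 1.19 to 6.70 for MSTRG.277.1. The SE does not cover this.

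MSTRG.46743.1 (chromosome 7, 42132901 to 42133569, 1 exon, 669 bases, no strand given) combined a high level with a clear gap. It had 6.27, 14.5 and 20.2 FPKM at 40 d and 0.625, 1.06 and 2.47 at 30 d, and the log2 difference was 3.36 ± 0.37 (adjusted p = 0.000354). JN_8 and JN_9 were its highest libraries of 30 d at 2.22 and 2.47 FPKM, both well under the lowest library of 40 d. MSTRG.3456.1 on chromosome 10, a single-exon intergenic RNA of 213 bases chosen after its values were seen, was listed at 0 in all 6 libraries of 30 d and averaged 0.392 FPKM at 40 d (adjusted p = 0.00175), so no fold is given.

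Sense RNAs were also among the large rises. MSTRG.4974.2 shares a splice junction with LOC102665482 on chromosome 10 and had 0.702, 1.09 and 2.66 FPKM at 40 d against at most 0.202 at 30 d (log2 difference 3.43 ± 0.41, adjusted p = 0.000801). Its isoform MSTRG.4974.3 was also called (2.89 ± 0.56, adjusted p = 0.01), while MSTRG.4974.4 was not (0.80 ± 0.61, adjusted p = 0.520). These isoforms overlap and share reads, so how their FPKM divides is an estimate. MSTRG.7706.2, which shares a junction with the protein-coding LOC100818061 on chromosome 12, had 0.412, 0.967 and 1.68 FPKM at 40 d and at most 0.0257 at 30 d (3.30 ± 0.33, adjusted p = 0.000341).

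The most abundant RNA that rose was MSTRG.38563.1 (chromosome 4, 49882533 to 50090071, plus strand, 5 exons, 1109 bases), which shares a junction with LOC100799378. Its FPKM was 99.9, 203 and 275 at 40 d and 49.9, 82.8 and 116 at 30 d, a log2 difference of 1.25 ± 0.28 (adjusted p = 0.0236). The stages overlapped through MT_7 at 116 and JN_4 at 99.9, and within each line all libraries of 40 d were above all of 30 d. It was called in 16 of 24 alternatives, and not without JN_5, JN_7, MT_4, MT_5, MT_6, MT_8 or MT_9 (adjusted p = 0.0504 to 0.0738).

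**Figure D4:**
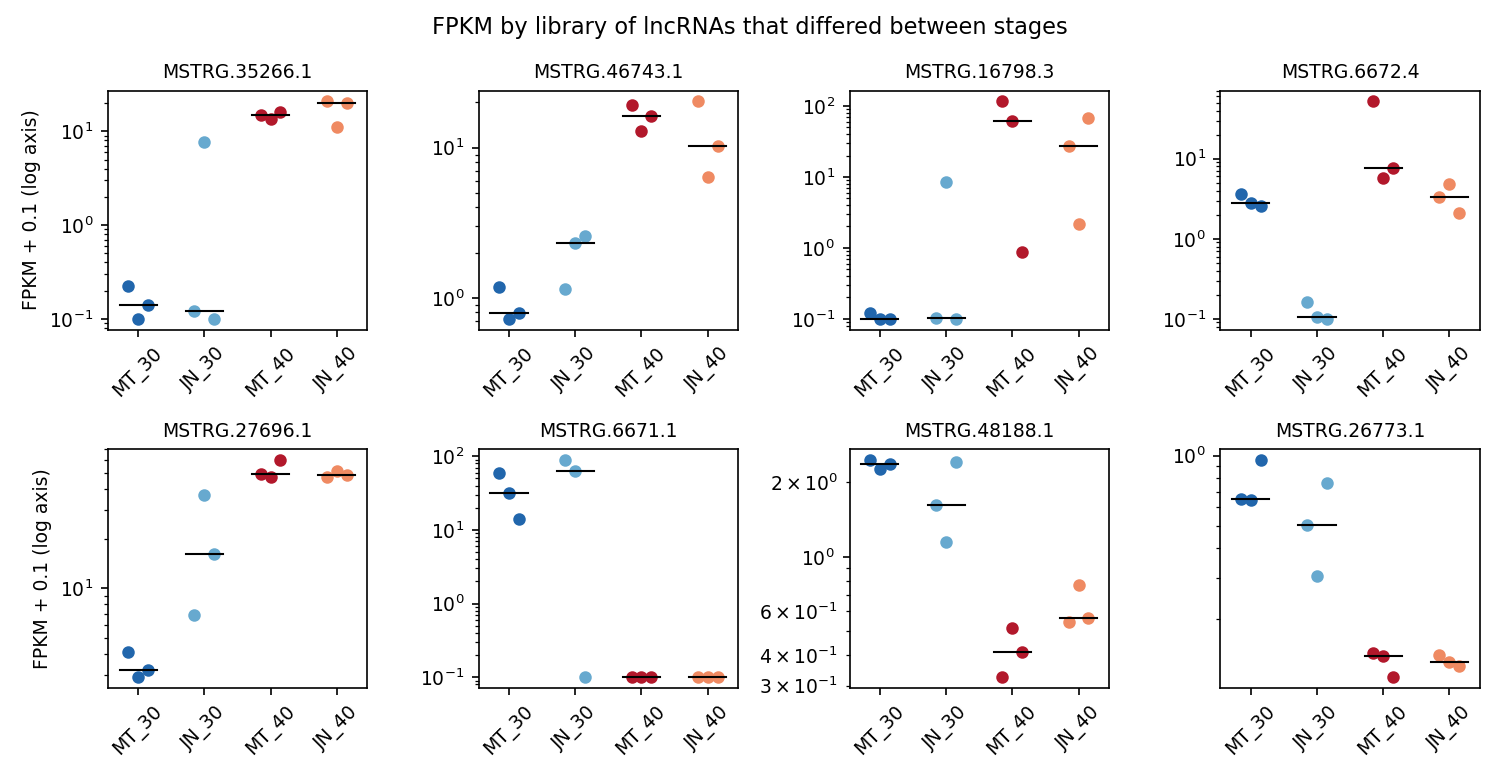
FPKM plus 0.1 on a log axis for 8 lncRNAs in the 3 libraries of each of the 4 groups, with a bar at the median of each group. MSTRG.35266.1, MSTRG.46743.1, MSTRG.16798.3, MSTRG.6672.4 and MSTRG.27696.1 were higher at 40 d, and MSTRG.6671.1, MSTRG.48188.1 and MSTRG.26773.1 lower; the point of MSTRG.35266.1 at 7.54 FPKM and that of MSTRG.16798.3 at 8.35 FPKM among the JN_30 libraries are both JN_8.

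Antisense RNAs were called mostly upwards: 21 of the 209 tested were higher (10.0%) and 2 were lower (0.957%), beside 2.26% and 1.15% of all lncRNAs. The 21 came from 18 lncRNA genes. Of the 21, 12 were without overlap between the stages, beside 105 of the 207 lncRNAs called higher and 1.42% of all lncRNAs tested. Their log2 differences ran from 1.17 to 6.29 with a median of 2.35. The median over all 209 antisense RNAs was 0.26, beside -0.10 over all lncRNAs tested. The libraries were made with a stranded kit, but no source used here says whether strand entered the expression estimates, so reads of an antisense RNA and of the gene opposite it may not be separated. The levels of the opposite genes were not analysed here.

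The largest of these stood opposite HPS, the gene of the hydrophobic protein from soybean, which is made in the inner pod wall and deposited on the seed surface. MSTRG.16798.3 (chromosome 15, 9433993 to 9443178, plus strand, 2 exons, 549 bases) had 0.776, 44.3 and 116 FPKM at 40 d and 0, 0.00221 and 8.35 at 30 d. At 40 d, 4 libraries were above 27 FPKM, while MT_6 at 0.776 and JN_5 at 2.04 were below JN_8 at 8.35, so the stages overlapped. The log2 difference was 6.29 ± 1.32 (adjusted p = 0.0175), and 7.37 without JN_8 and JN_9 (adjusted p = 0.00285). It was called in 21 of 24 alternatives, and not without MT_5 (adjusted p = 0.0501) or by voom (adjusted p = 0.0831). The neighbouring isoform MSTRG.16798.1, opposite LOC100812425, ran in parallel with 1.36, 47.6 and 287 FPKM at 40 d and 0, 0.166 and 4.91 at 30 d (6.0 ± 1.27, adjusted p = 0.0177), and MSTRG.16798.2 missed the call (3.56 ± 1.02, adjusted p = 0.0743). HPS is known as a tandemly repeated gene in soybean, so reads of near-identical copies may have been shared out among these transcripts, and the values are uncertain to that extent.

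Opposite PRP3, a gene of a proline-rich cell wall protein, MSTRG.6672.4 (chromosome 11, 12644195 to 12644559, minus strand, 311 bases) had 2.01, 5.2 and 52.0 FPKM at 40 d and 0, 1.25 and 3.52 at 30 d. The rise was seen within each line, from 2.44 to 3.52 in MT_30 to 5.72 to 52.0 in MT_40 and from at most 0.0638 in JN_30 to 2.01 to 4.68 in JN_40. The pooled log2 difference was 3.46 ± 0.56 (adjusted p = 0.00388). Of the other isoforms of this lncRNA gene none was called: MSTRG.6672.2 gave 3.17 ± 0.84 (adjusted p = 0.0553) and MSTRG.6672.5 gave 4.16 ± 1.31 (adjusted p = 0.0976), and all 4 tested isoforms opposite PRP3 had positive differences with a median of 3.31. They overlap almost wholly, so reads were divided among them.

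Beside this locus, 17844 bases away, lay an intergenic RNA with the opposite pattern. MSTRG.6671.1 (chromosome 11, 12662404 to 12663195, minus strand, 1 exon, 792 bases) was listed at 0 in all 6 libraries of 40 d and had 58.8, 31.4 and 14.2 FPKM in MT_7, MT_8 and MT_9 and 89.1, 63.1 and 0 in JN_7, JN_8 and JN_9. It was abundant in 5 libraries of 30 d and at 0 in JN_9, as in the later stage (adjusted p = 0.00504, and 1.64e-07 without JN_8 and JN_9). No fold is given against a stage at 0.

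MSTRG.27696.1 (chromosome 19, 44575166 to 44582002, minus strand, 2 exons, 482 bases), opposite LOC100777426, varied little within the later stage. At 40 d its FPKM was 47.2, 48.8 and 60.1 at the lowest, median and highest, and at 30 d 2.79, 5.38 and 36.9. MT_7, MT_8, MT_9 and JN_7 lay between 2.79 and 6.76 FPKM, JN_9 at 16.1 and JN_8 at 36.9, so the last pair lay between the stages. The log2 difference was 2.78 ± 0.44 (adjusted p = 0.00366), with 3.95 in MT72 and 1.62 in JN18, and 3.58 without JN_8 and JN_9.

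VLXC, a vegetative lipoxygenase, belongs to a family that oxidises polyunsaturated fatty acids such as linoleic and linolenic acid. The RNA opposite it, MSTRG.44447.1 (chromosome 7, minus strand, 838 bases), had 4.06, 5.33 and 12.8 FPKM at 40 d and 0.386, 2.10 and 3.33 at 30 d. The stages did not overlap, the log2 difference was 1.91 ± 0.46 (adjusted p = 0.0380), and the call was made in 12 of 24 alternatives, with adjusted p = 0.0556 to 0.0909 without JN_4, JN_5, JN_6, JN_7, MT_4, MT_5, MT_8 or MT_9. MSTRG.31268.1, opposite LOC100499886 on chromosome 2, had 4.10, 5.01 and 9.11 FPKM at 40 d and 0.154, 0.353 and 3.44 at 30 d (3.36 ± 0.54, adjusted p = 0.00373), with JN_9 as the high library of 30 d. The 3 overlapping isoforms opposite LOC100526921 rose together, MSTRG.29612.1, MSTRG.29612.2 and MSTRG.29612.3, by 2.12, 2.33 and 1.77 log2 units (adjusted p = 0.0358, 0.00598 and 0.00832). The first of them was called in 15 of 24 alternatives and the others in all 24.

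One of the 2 antisense RNAs that fell was MSTRG.17969.1, opposite LOC100306319 on chromosome 15. It had 0.409 FPKM at the median of 40 d with a highest value of 1.54, and 0.112, 18.3 and 32.5 at 30 d. Only JN_9, at 0.112, was low among the libraries of 30 d, and the log2 difference was -4.13 ± 0.91 (adjusted p = 0.0223). It was called in 15 of 24 alternatives, and not without JN_4, JN_7, MT_4, MT_5, MT_7, MT_8 or MT_9 (adjusted p = 0.0509 to 0.0604).

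Among the lncRNAs that fell, the first by size without overlap was MSTRG.46335.1 (chromosome 7, 36936621 to 36936827, 207 bases, no strand given), in an intron of LOC100793283. It was listed at 0 in at least 4 libraries of 40 d with 0.110 FPKM as its highest, against 0.170, 0.737 and 1.5 at 30 d (log2 difference -2.70 ± 0.38, adjusted p = 0.00204). MSTRG.26773.1 (chromosome 19, 34683323 to 34683937, 615 bases) lies in an intron of COL17, a CONSTANS-like gene of a family of zinc finger proteins that takes its name from a flowering regulator of Arabidopsis. It had 0.0121, 0.0342 and 0.0430 FPKM at 40 d and 0.205, 0.545 and 0.858 at 30 d. The stages lay far apart in both lines, and the log2 difference on the log2(FPKM + 0.1) scale, which understates changes this low, was -2.20 ± 0.33 (adjusted p = 0.00242).

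MSTRG.15428.8 (chromosome 14, minus strand, 3 exons, 3873 bases), which shares a junction with LOC102665062, was listed at 0 in all 6 libraries of 40 d and had 0.197, 0.545 and 1.54 FPKM at 30 d (adjusted p = 0.00242). Of the intergenic RNAs, MSTRG.43843.1 on chromosome 6 had at most 0.202 FPKM at 40 d and 0.226, 1.24 and 3.09 at 30 d (-2.62 ± 0.48, adjusted p = 0.00654). Its fall was larger in MT72 (-3.80) than in JN18 (-1.45), a difference that was not called. MSTRG.48188.1 (chromosome 8, 9269753 to 9272214, plus strand, 2 exons, 377 bases) was more abundant, with 0.225, 0.429 and 0.666 FPKM at 40 d and 1.04, 2.22 and 2.37 at 30 d (-1.97 ± 0.29, adjusted p = 0.00242). It was called in all 24 alternatives.

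The other intergenic RNAs that fell differed in which libraries were high. MSTRG.17634.1 on chromosome 15 had 0.474, 1.24 and 2.14 FPKM at 40 d and 2.90, 3.65 and 12.6 at 30 d, the highest being JN_9 (-1.94 ± 0.41, adjusted p = 0.0191, and -1.37 without JN_8 and JN_9). MSTRG.4334.1 on chromosome 10 had at most 0.0888 FPKM at 40 d and 0.155, 0.434 and 1.51 at 30 d (-2.32 ± 0.43, adjusted p = 0.00717), and MSTRG.6513.1 on chromosome 11 had 0.0407, 0.0654 and 0.168 against 0.250, 0.903 and 1.22 (-2.20 ± 0.39, adjusted p = 0.00601). The last of these had a log2 change of -2.97 in MT72 and -1.42 in JN18, a difference that was not called (limma, adjusted p = 0.721). Its JN18 libraries of 30 d were at 0.931 (JN_7), 0.250 (JN_8) and 0.390 FPKM (JN_9). MSTRG.16793.1 (chromosome 15, 9404191 to 9405100, minus strand), in the same region as the HPS locus, fell from 0.476, 0.725 and 1.47 FPKM at 30 d to 0.0485, 0.0871 and 0.386 at 40 d (-1.79 ± 0.34, adjusted p = 0.00941).

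Of the remaining large falls, the intronic MSTRG.37773.1 had a log2 difference of -2.30 ± 0.46 (adjusted p = 0.0120). MSTRG.52978.2 and MSTRG.10982.1 gave -2.26 ± 0.55 and -2.06 ± 0.50 (adjusted p = 0.0381 for each). Each of the last was called in 11 of 23 alternatives and had 1 high library at 30 d, JN_9 at 6.75 FPKM and JN_7 at 2.70 FPKM.

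Of the abundant RNAs that fell, MSTRG.22466.1 (chromosome 17, 31263870 to 31264469, plus strand, 1 exon, 600 bases) had 1.15, 2.09 and 83.1 FPKM at 40 d and 4.10, 137 and 226 at 30 d. MT_4 at 83.1 was the exception at 40 d, and JN_8 at 15.8 and JN_9 at 4.10 were far below the other libraries of 30 d, all above 126. The log2 difference was -4.08 ± 0.91 (adjusted p = 0.0239), and -5.19 without JN_8 and JN_9. It was called in 17 of 24 alternatives, and not without JN_4, MT_5, MT_6, MT_7, MT_8 or MT_9 (adjusted p = 0.0533 to 0.0639). MSTRG.35666.1 on chromosome 3 had 7.92, 24.0 and 33.7 FPKM at 40 d and 19.9, 59.4 and 128 at 30 d (-1.34 ± 0.34, adjusted p = 0.0451). Its stages overlapped through JN_8 and JN_9, and it was called in 7 of 24 alternatives.

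The other classes are given by count. Of 4688 intronic lncRNAs tested 44 were higher (0.939%) and 38 lower (0.811%), and of 3184 intergenic RNAs 119 were higher (3.74%) and 56 lower (1.76%). Of 912 RNAs that share a splice junction 18 were higher (1.97%) and 5 lower (0.548%). Of 149 that overlap exons on the same strand 5 were higher (3.36%) and 4 lower (2.68%), which are few calls. Of all lncRNAs tested 2.26% were higher and 1.15% lower. Medians of the log2 difference were -0.14 for intronic, -0.09 for intergenic and -0.02 for junction RNAs, beside -0.10 over all lncRNAs tested. Without JN_8 and JN_9 the calls were 135 higher and 225 lower among intronic RNAs, 260 and 250 among intergenic, 60 and 37 among junction, 26 and 9 among exon-overlapping and 38 and 11 among antisense RNAs, so the balance of intronic and intergenic calls depended on these libraries.

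**Figure D5:**
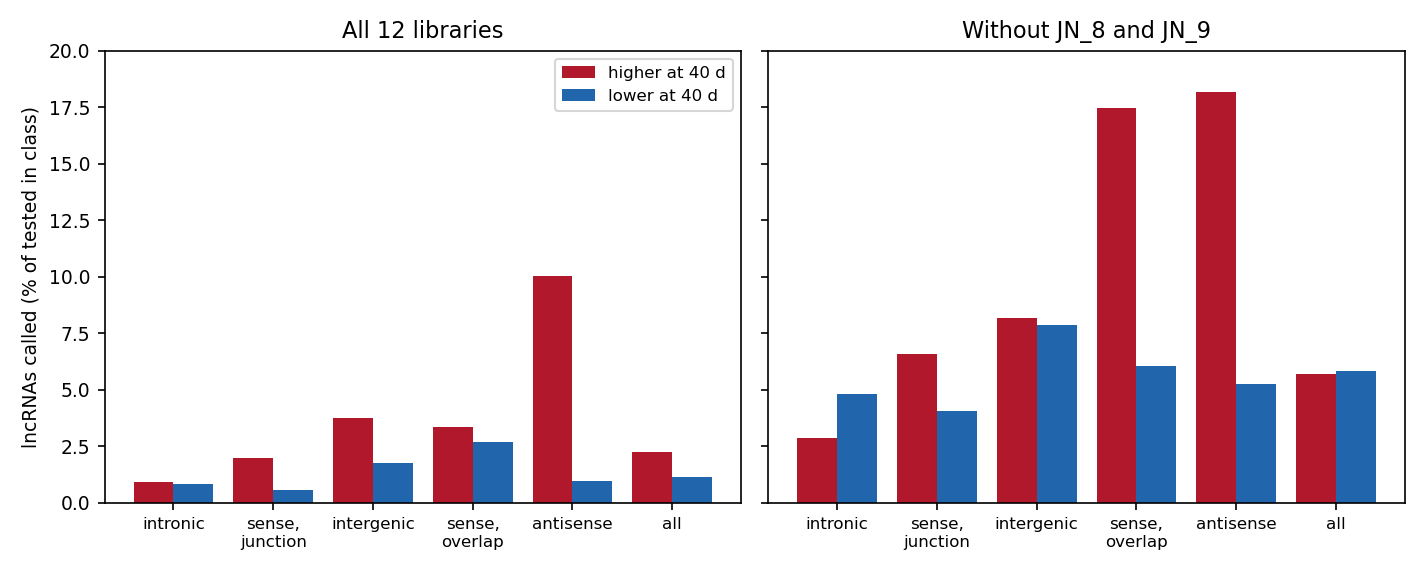
Percent of the lncRNAs tested in each class that were called higher (red) or lower (blue) at 40 d with all 12 libraries (left) and without JN_8 and JN_9 (right). Antisense RNAs had 10.0% called higher on the left and 18.2% on the right, beside 2.26% and 5.68% of all lncRNAs tested. Intronic RNAs turned from 44 higher and 38 lower to 135 higher and 225 lower. All lncRNAs tested went from 207 higher and 105 lower to 519 and 532.

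The calls were also counted by length, exons and abundance, beside 2.26% higher and 1.15% lower of all lncRNAs tested. Of 1188 RNAs of 1 kb and over, 58 were higher (4.88%) and 17 lower (1.43%), against 53 higher (1.56%) and 31 lower (0.910%) of 3408 under 300 bases. Of 1853 RNAs with 2 or more exons 73 were higher (3.94%) and 20 lower (1.08%), and of 7289 with 1 exon 134 were higher (1.84%) and 85 lower (1.17%). By abundance, of 201 lncRNAs that averaged 5 FPKM and over, 17 were higher (8.46%) and 6 lower (2.99%). Without JN_8 and JN_9, 5.68% of all lncRNAs tested were higher and 5.82% lower. The balance then turned for short and single-exon RNAs, to 127 higher (3.73%) and 183 lower (5.37%) under 300 bases and 338 (4.64%) and 436 (5.98%) with 1 exon. The counts were 141 (11.9%) and 80 (6.73%) at 1 kb and over and 181 (9.77%) and 96 (5.18%) with 2 or more exons. At 5 FPKM and over they were 34 (16.9%) and 22 (10.9%). FPKM of short and rare RNAs rests on few reads, about 23 to 28 single reads of 150 bases at 1 FPKM for an RNA of median length. As reads were paired, the number of fragments is smaller. Their differences were therefore measured less precisely, and the part of depth in these shares was not tested.

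The summed FPKM of the intronic class was lower at 40 d, at 3982 ± 446 against 5308 ± 866 (SD, n = 6 each). The exact two-sided permutation test within lines gave p = 0.005, the smallest that its 400 arrangements allow, and 0.025 adjusted over 5 classes. Much of this was MSTRG.28811.1, an RNA on chromosome 2 in an intron of LOC102660211 chosen after its values were seen, which averaged 415 ± 319 FPKM at 40 d and 1468 ± 1124 at 30 d and was not itself called (-3.11 on the log2 scale, adjusted p = 0.285). Without the 10 most abundant lncRNAs the intronic difference was -273 FPKM rather than -1326 (adjusted exact p = 0.244), and without MT_7, MT_8, MT_9 or JN_6 it was also not called, with a difference of -1318, -1179, -1084 and -1214 FPKM (adjusted exact p = 0.075 each). The intergenic, junction, exon-overlapping and antisense sums were not called (adjusted exact p = 0.285, 0.285, 0.15 and 0.15). Without the 10 most abundant lncRNAs the intergenic sum was lower by a difference of -1602 FPKM and the antisense sum higher by 357 FPKM (adjusted exact p = 0.0125 each), and without JN_8 and JN_9 the exon-overlapping sum differed by -1325 FPKM (adjusted exact p = 0.0313). Antisense RNAs summed to 11635 ± 1943 FPKM at 40 d and 8232 ± 3131 at 30 d, of which most was the isoforms of MSTRG.41534 opposite LOC100789918 on chromosome 6.

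Some called RNAs lay near each other. All 19 neighbouring pairs of called lncRNAs from different lncRNA genes within 10 kb had 1 direction, beside 1948 of 2873 such pairs (67.8%) among all lncRNAs tested, and each of 9 host genes that held more than 1 called RNA, 19 in all, had 1 direction. The shares are a description. An example is the pair MSTRG.45247.1 and MSTRG.45248.1 in introns of LOC100783920, named ALDH2C4 in the reference, a gene whose Arabidopsis counterpart oxidises precursors of cell wall phenolics. They lie 1417 bases apart on chromosome 7 and rose by 1.33 ± 0.30 and 1.63 ± 0.39 log2 units (adjusted p = 0.0284 and 0.0370). They were called in 15 and 12 of 24 alternatives, with adjusted p up to 0.0790 and 0.0979, both without MT_8, and both calls were also lost without JN_4, JN_5, MT_4, MT_5, MT_6 or MT_9. RNAs this close may be pieces of 1 transcript, so the pairs are not independent. Over the 20 numbered chromosomes the share called higher ran from 0.881% on chromosome 20 (4 of 454) to 4.29% on chromosome 2 (21 of 490), beside 2.26% of all lncRNAs tested. The share called lower ran from 0.200% on chromosome 18 (1 of 499) to 1.81% on chromosome 1 (7 of 386), beside 1.15%. These are few calls per chromosome, and some are overlapping isoforms.

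A closer pair fell, mainly in MT72. MSTRG.46261.1, which overlaps an exon of LOC100803874 on chromosome 7, had 39.4, 40.1 and 17.9 FPKM in MT_7, MT_8 and MT_9 but at most 0.933 in any JN18 library of 30 d, and at 40 d at most 0.175. The overlapping intergenic MSTRG.46262.1 had 9.88, 14.8 and 6.09 FPKM in the same MT72 libraries and at most 0.271 elsewhere. Their pooled log2 differences were -4.47 ± 0.82 (adjusted p = 0.00675) and -3.49 ± 0.75 (adjusted p = 0.0191), called in 22 and 16 of 23 alternatives, and they were the 2 called RNAs whose effect also differed between lines, by -5.34 and -4.94 log2 units. For this pair the pooled value is an average of unlike effects.

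The lncRNAs with a host gene of known pathway were few, too few to set against the 3.41% called of all lncRNAs tested. None of the 4 tested in or beside lipid genes was called, and none had an unadjusted p of at most 0.05 or was called by voom or any other alternative. They were an intronic RNA of DGAT, whose family makes the last step of oil synthesis (MSTRG.51202.1, 0.934 FPKM at the median of 40 d and 0.938 at 30 d, log2 difference 0.01 ± 0.31), an intronic RNA of the acyl-ACP thioesterase gene FATB1B (MSTRG.21677.1, 1.32 and 1.35 FPKM, -0.15 ± 0.33) and 2 RNAs of the phospholipase D gene PLDZ (MSTRG.33761.1 and MSTRG.33760.2, -0.12 ± 0.43 and -0.07 ± 0.46). For DGAT the log2 change was 0.66 in MT72 and -0.64 in JN18, and the difference between lines was not called (limma, adjusted p = 0.698).

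Of seed storage and maturation hosts 1 of 4 was called, the HPS antisense RNA, and the counts of this and the next lists were the same without JN_8 and JN_9. Intronic RNAs of LEA-2, of a family of late embryogenesis abundant proteins, gave 0.58 ± 0.23 and 0.39 ± 0.21 (MSTRG.31810.1 and MSTRG.31811.1, adjusted p = 0.179 and 0.349), and an RNA opposite the beta-amylase gene BMY1 gave -0.65 ± 0.44 (MSTRG.44141.1). Of lipoxygenases and vegetative storage proteins 1 of 3 was called, opposite VLXC, and RNAs opposite VSPA gave 0.43 ± 0.52 and -1.79 ± 0.70 (MSTRG.44527.1 and MSTRG.44528.1). Of cell wall hosts 1 of 4 was called, opposite PRP3. None of 6 RNAs of transcription factor hosts was called, with differences from -1.07 to 0.74, none at an unadjusted p of at most 0.05 and none by voom. An intronic RNA of LOC100802822, named LBD31 in the reference and of the lateral organ boundaries domain family of regulators, rose by 2.02 ± 0.52 (MSTRG.46566.1, adjusted p = 0.0459, chosen after its values were seen) and was called in 8 of 24 alternatives.

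Of the 16 lncRNAs that the text of the study names, 15 passed the filter and 0 were called in limma, none by voom, while 8 had an unadjusted p of at most 0.05, 7 of them lower at 40 d and 1 higher. Without JN_8 and JN_9, libraries left out for lying towards 40 d, 7 were called beside 11.5% of all lncRNAs tested. MSTRG.45502.1 on chromosome 7 had 0.308, 0.499 and 1.21 FPKM at 40 d and 0.0962, 3.27 and 5.63 at 30 d. The low library of 30 d was JN_9, and the log2 difference was -1.65 ± 0.61 (adjusted p = 0.150), or -2.47 without JN_8 and JN_9 (adjusted p = 0.00148). The same step was made by MSTRG.13311.1 (-1.56 and -2.27), MSTRG.13820.1 (-1.51 and -2.41), MSTRG.27064.1 (-1.23 and -1.91), MSTRG.35711.1 (-1.22 and -1.90) and MSTRG.48618.1 (-0.66 and -1.44), each in the order with and without these libraries, and upwards by MSTRG.38543.1 (2.07 and 3.28).

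These 16 were taken up by the study with these samples in hand, so their directions are not independent evidence. MSTRG.25566.3, opposite LOC100779523, had the largest fitted difference (-3.79 ± 1.23, adjusted p = 0.105) with overlapping stages, as MT_6 reached 11.6 FPKM at 40 d and MT_9 was at 0.0426 at 30 d. The isoform MSTRG.25566.2 opposite the same gene rose (2.92, adjusted p = 0.0130), and how reads were divided between these isoforms is not known. MSTRG.29201.1 and MSTRG.4796.5 had pooled differences of -0.03 ± 1.81 and 0.01 ± 0.82, with -4.75 and -2.11 in MT72 and 4.68 and 2.13 in JN18. Neither difference between lines was called. The study describes both as raised in MT_40 versus MT_30 and lowered in JN_40 versus JN_30, the reverse of the signs found here. The reason was not tested.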

How the data were processed

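RNA of young pods was depleted of ribosomal RNA and sequenced as paired reads of 150 bases. Cutadapt, HISAT2 (TopHat2 in the submitters' processing notes) and StringTie were used by the authors, who deposited FPKM and coverage (a signal, used here only for depth) per lncRNA with coding scores (CPC and CNCI, not tested); versions, genome build and use of strand are not given in the sources used here, and coordinates are those of the deposited table. Replicates were treated as separate biological samples. The study used a count test, and since FPKM are not counts limma 3.58.1 in R 4.3.3 was fitted here on log2(FPKM + 0.1) with line and stage and a variance trend. A lncRNA had to pass 0.1 FPKM in 3 or more libraries. The script was tested on simulated data. Named lncRNAs were, per direction, up to 12 with the largest change among those called, without overlap and at 0.5 FPKM or more in the higher stage, the 3 most abundant called, called members of host gene lists and the 16 the study names; others were chosen after their values were seen. Members and lists were chosen with earlier results of these data known. Host names were matched to Glycine_max_v4.0, 130 of 137 called and 5774 of 5958 tested. Class sums were tested by exact permutation within lines. Alternatives changed the pseudocount, filter, scaling, weights, prior, line term, replicate block, test (voom on estimated reads) and libraries; leaving out JN_8 and JN_9 was added after the data were seen.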

Additional observations from a re-analysis of the deposited data

Results flagged for a closer look

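The 34 called lncRNAs of the naming rule and 8 measures of the libraries were checked for a value far from the others. Each stage of 6 libraries was checked on the log2 scale by Dixon's test, and 18 of 84 groups held one. The 1 in 20 set by this test holds for values of 1 normal distribution. Here each stage held 2 lines, several lncRNAs lay at or near 0, and the lncRNAs were chosen by their calls. The count is therefore a description and is not set against chance. Of these 12 lay at 30 d, and all but 1 of the 12 were JN_8 or JN_9. JN_8 was high in MSTRG.35266.1 (7.54 FPKM), MSTRG.5874.1 (1.57 FPKM), MSTRG.11101.1 (0.0526 FPKM) and MSTRG.16798.3 (8.35 FPKM). JN_9 was high in MSTRG.20738.1 (0.0217 FPKM), MSTRG.4974.2 (0.202 FPKM), MSTRG.31268.1 (3.44 FPKM), MSTRG.52978.2 (6.75 FPKM) and MSTRG.17634.1 (12.6 FPKM). JN_9 was also low in MSTRG.6671.1 (0 FPKM) and in the number of lncRNAs above 0 FPKM (8225). JN_7 was high in MSTRG.10982.1 (2.70 FPKM). At 40 d JN_5 was low in MSTRG.11101.1 (0.166 FPKM) and high in MSTRG.10982.1 (0.0658 FPKM) and MSTRG.44447.1 (12.8 FPKM), MT_4 was high in MSTRG.46335.1 (0.110 FPKM) and MSTRG.22466.1 (83.1 FPKM), and MT_6 was high in MSTRG.27696.1 (60.1 FPKM).

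The stage effect of 7 lncRNAs differed between MT72 and JN18 by the test of the difference (limma, adjusted p of at most 0.05). It was lower in MT72 by log2 differences of -3.86 for MSTRG.19913.1, -4.49 for MSTRG.43107.1, -5.34 for MSTRG.46261.1, -4.94 for MSTRG.46262.1 and -4.54 for MSTRG.51380.1, in each of which the 3 libraries of MT_30 were above every other library. It was higher in MT72 by 3.14 for MSTRG.53475.1 and 4.23 for MSTRG.53721.2. In MSTRG.53475.1 the libraries of MT_30 had 1.55, 1.52 and 1.03 FPKM and those of JN_30 8.06, 9.05 and 10.3.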

How the results depend on the processing

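The 312 calls of the stage effect (207 higher, 105 lower) became 181 (135 and 46) above 0.5 FPKM in at least 6 libraries, 886 (464 and 422) with array weights, 1051 (519 and 532) without JN_8 and JN_9, and 1205 (637 and 568) at an absolute log2 fold change above 1 with unadjusted p. Without line as a term 68 were lower. Leaving out 1 library gave 167 to 799 calls, 131 to 396 higher and 36 to 403 lower. A replicate block gave 441 calls (277 and 164) and held all 312; same-numbered libraries did not deviate together (correlations of -0.159 to 0.0136), so the numbers pair no samples. The other scalings, pseudocounts, priors, voom and the 4-group fit gave 244 to 370. The 7 differences between lines became 1 with a pseudocount of 0.01, 1 without JN_8 and JN_9, and 0 to 10 leaving out 1 library (limma, 488 to 1074 at unadjusted p). Without JN_8 and JN_9, 11.5% of all lncRNAs tested were called. By class these were 360 of 4688 intronic, 510 of 3184 intergenic, 97 of 912 junction, 35 of 149 exon-overlapping and 49 of 209 antisense RNAs. Without the 10 most abundant lncRNAs the summed difference was -273 FPKM for intronic, -1602 for intergenic (adjusted exact p = 0.0125) and 357 for antisense RNAs (adjusted exact p = 0.0125), and without JN_8 and JN_9 it was -1325 for exon-overlapping RNAs (adjusted exact p = 0.0313). Leaving out 1 library gave -1565 to -1084 FPKM for intronic RNAs. The cause was not tested. Of the settings of the 50 named called lncRNAs 1023 kept direction and call and 159 lost the call; none of these reversed. Few reads limit RNAs under about 1 FPKM.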
